A study of Oncorhynchus tshawytscha with 17 samples.

Results

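The gene wash1 (identifier LOC112218626) is 1 of 42554 named entries in a table of RNA sequencing counts from hindgut mucosa of 17 diploid Chinook salmon (Oncorhynchus tshawytscha), a Pacific salmonid. It was chosen by its p between antibiotic and control fish, the smallest of all genes in an earlier pass over the same counts. The group levels of wash1 below are therefore a description and carry no test. The study looked for hindgut genes that respond to treatment of the gut microbiota. The groups were 6 healthy control fish, 5 fish given antibiotics for 10 days and 6 fish given probiotics for 10 days, and treated fish were killed at that point with an overdose of clove oil. The sources used here do not give the drugs, the bacterial strains, the doses, the age of the fish or the handling of controls. Tissue and cells are labelled as hindgut and epithelia. Each fish is named by a prefix for its group (ctl, abx or pro) and its title's own number and letter. Nothing in the labels says what the number stands for.

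The WASH complex sits on endosomes, the sorting compartments through which material taken up at the cell surface passes. Its wash1 subunit is a nucleation promoting factor: it switches on the Arp2/3 complex, which then builds branched actin on the endosome. That actin helps retromer, retriever and sorting nexins pull receptors out of the path to the lysosome and send them back to the surface. In mammalian cells the other subunits are washc2, whose long tail binds retromer and the actin capping protein, and washc3, washc4 and washc5. In zebrafish, enterocytes of the hind part of the gut take up whole dietary protein through the receptors cubilin and amnionless and digest it in large lysosomes.

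The wash1 entry starts at 31522460 and ends at 31528039 of NC_037115.1, plus strand, in the deposited annotation columns, whose build no source names. It spans 5580 bases and holds 11 exons with a summed length of 1577 bases. The only exon with alternative starts was the ninth, at 31526570 or 31526579 with a common end at 31526725, a shift of 9 bases, so the count joins transcripts that differ there. No other entry overlapped wash1, and 1 entry of the table carried the symbol. Salmonid genomes hold many recent gene copies, and copies without a symbol would not be seen.

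Libraries held 28581299 to 61060504 counts over named genes. The hindgut label was checked against marker genes. All 17 endocytic and lysosomal enterocyte genes were tested, and together they made up 19428 to 34566 CPM (counts scaled to a common library total, with TMM factors) of a fish. Of the absorptive enterocyte genes 8 of 10 were tested, and the list summed to 5495 to 13012 CPM. The smooth muscle list (3 genes) summed to 960 to 3674 CPM, the leukocyte list (9 genes) to 92.4 to 239 CPM, the liver list (11 genes) to 6.93 to 133 CPM and the exocrine pancreas list (5 genes) to 11.5 to 719 CPM. No listed marker in the table was at 0 in all fish, and markers of tissue other than epithelium were thus present beside wash1. In such bulk tissue fewer cells of a type and less RNA per cell cannot be told apart.

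Transcripts of wash1 were lowest in fish given antibiotics. Controls stood at 69.2 CPM in ctl12A, 48.1 in ctl12B, 77.3 in ctl12C, 84.2 in ctl35A, 50.1 in ctl35B and 54.9 in ctl35C. Antibiotic fish stood at 39.0 CPM in abx67A, 33.7 in abx67B, 36.4 in abx67C, 37.0 in abx91A and 32.2 in abx91B. Probiotic fish stood at 51.8 CPM in pro115A, 50.5 in pro115B, 40.7 in pro115C, 69.9 in pro139A, 63.7 in pro139B and 55.3 in pro139C. Every antibiotic fish was below every control and every probiotic fish, while controls and probiotic fish overlapped over most of their range. The closest pair across the gap was abx67A and pro115C.

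Markers of other tissues differed between the same groups. From controls to antibiotic fish all 10 tested liver markers had a log2 fold change above 0 (median 2.56). Of them 7 had an unadjusted edgeR p under 0.05, beside 6.21% of all tested genes in either direction, and 0 were called. The liver sum was 109 CPM in abx67B and 133 CPM in abx67C, against 6.93 to 11.7 CPM in the other antibiotic fish, 7.72 to 15.9 CPM in controls and 7.03 to 72.1 CPM in probiotic fish. All 6 erythrocyte markers (median -0.77), all 4 tested pancreas markers (median -0.90) and all 3 smooth muscle markers (median -0.25) had log2 fold changes below 0, with 0 called by edgeR and 1, an erythrocyte marker, at an unadjusted p under 0.05. The part of liver, pancreas, erythrocytes and smooth muscle in the wash1 values was not tested. Pancreas sums ran from 15.9 to 124 CPM in controls, 11.5 to 75.9 CPM in antibiotic fish and 14.6 to 719 CPM in probiotic fish. Fish abx67A, abx91A and abx91B, which lacked the high liver sums, stood at 39.0, 37.0 and 32.2 CPM of wash1. Fish abx67B and abx67C stood at 33.7 and 36.4 CPM. These values belong to the contrast that picked the gene and carry no test. A fit without the 8 libraries whose liver or pancreas sum was over 3 times the median left 9 fish. In it the log2 fold change of wash1 in antibiotic fish was -0.74 ± 0.20 SE from controls and -0.39 ± 0.23 SE from probiotic fish. That of probiotic fish from controls was -0.34 ± 0.22 SE. The 8 libraries were set aside after the data were seen, so the values are a description.

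**Figure D1:**
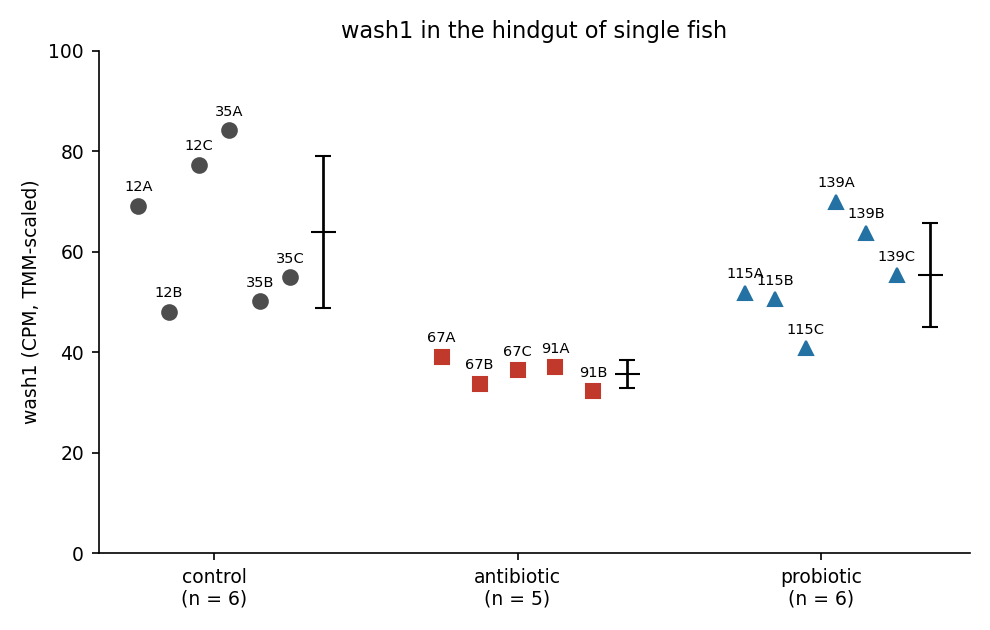
Transcript level of wash1 in each fish, in CPM scaled by TMM, with 1 point per fish labelled by its title number and the mean ± SD of the group at its right. The 5 antibiotic fish lie between 32.2 and 39.0 CPM, below all controls (48.1 to 84.2) and all probiotic fish (40.7 to 69.9).

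Group means ranked control, probiotic, antibiotic, at 63.97 ± 15.1 CPM (SD, n = 6), 55.3 ± 10.32 CPM (SD, n = 6) and 35.7 ± 2.70 CPM (SD, n = 5). The control and probiotic means lay closer than the SD of either group. The antibiotic mean was 1.79-fold below the control mean in the fit of all genes (log2 fold change -0.84 ± 0.16 SE) and 1.55-fold below the probiotic mean (-0.63 ± 0.16 SE). The probiotic mean was 1.16-fold below the control mean (-0.21 ± 0.15 SE, 95% interval -0.53 to 0.11). These comparisons share their control or antibiotic fish, which also served to pick the gene. Of all 30221 tested genes, 0.285% had every antibiotic fish below every control, 0.156% had every antibiotic fish below every probiotic fish and 0.0331% (10 genes) had both.

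Fish also differed in how widely they spread. The coefficient of variation of wash1 was 7.57% among antibiotic fish, against 23.6% among controls and 18.6% among probiotic fish. A choice by p between antibiotic and control fish favours a small spread in those groups, so these values carry no test. Each library held 1483 to 4191 wash1 counts, so counting error was 1.54 to 2.60% per fish, well under the spread of each group. That error covers counting only. Per kb of exon, wash1 averaged 33.4 CPM per kb over all fish, higher than 92.4% of tested genes, whose median was 2.52 CPM per kb.

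Within probiotic fish wash1 split by title number. The 3 pro115 fish averaged 47.7 ± 6.05 CPM and the 3 pro139 fish averaged 63.0 ± 7.35 CPM (SD), without overlap (log2 difference 0.40, two-sided exact permutation p = 0.1, the smallest that 3 against 3 allows). In 8.13% of tested genes all pro115 fish were below all pro139 fish. The ctl12 and ctl35 fish (n = 3 each) averaged 64.9 ± 15.1 and 63.1 ± 18.4 CPM (log2 difference -0.050, exact permutation p = 1). The abx67 and abx91 fish averaged 36.4 ± 2.66 CPM (n = 3) and 34.6 ± 3.34 CPM (n = 2), with a log2 difference of -0.073 (exact permutation p = 0.6, where the smallest possible is 0.2).

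The titles also hold the name of each library's index pair, a letter and a number. Antibiotic fish had the numbers 9 and 12 only. The name of abx67C is mixed, G9E12 for one index and G9 for the other, and it was counted under 9. Under number 9 the antibiotic fish averaged 37.7 CPM (n = 2), beside 69.2 CPM in the 1 control and 69.9 CPM in the 1 probiotic fish. Under number 12 they averaged 34.3 CPM (n = 3), beside 80.7 CPM in controls (n = 2) and 55.3 CPM in the 1 probiotic fish. Numbers 10 and 11 held controls at 54.9 CPM (n = 1) and 49.1 CPM (n = 2) and probiotic fish at 45.6 and 57.8 CPM (n = 2 each). Every antibiotic fish, abx67C at 36.4 CPM included, was below every fish of the other groups, so the order under each number was already given. With the index number as a factor the log2 fold change from control was -1.04 ± 0.13 SE, in the contrast that picked the gene. Among probiotic fish, pro115A had number 11, pro115B and pro115C had 10, and pro139A, pro139B and pro139C had 9, 11 and 12. Only number 11 held fish of both title numbers, so title and index number cannot be told apart in the split of wash1 among probiotic fish. The part of the index number in the wash1 values was not tested.

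None of the partner genes of wash1 in the WASH complex passed a test between groups. The table names 3 further subunits, washc2c, washc3 and washc4, and the capping protein genes capza1b and capzb, whose products cap actin filaments and bind the complex. Of these 5 partners, 4 had a log2 fold change above 0 and 1 below 0 between antibiotic and control fish, with a median of 0.039, beside 0.019 over all tested genes. In edgeR's quasi-likelihood test 0 of 5 passed in any comparison, where 0% of all genes passed, and 0 of 5 had an unadjusted p under 0.05. DESeq2 and limma-voom called none of the 5 either. The subunit closest to wash1 was washc2c, the retromer-binding subunit. Per fish, washc2c was at 267, 213, 263, 228, 212 and 213 CPM in ctl12A, ctl12B, ctl12C, ctl35A, ctl35B and ctl35C. Fish abx67A, abx67B, abx67C, abx91A and abx91B had 197, 177, 225, 205 and 200 CPM of washc2c. Fish abx67C lay inside the control range and the other antibiotic fish below it (log2 fold change -0.21 ± 0.11 SE, edgeR adjusted p = 0.816). Probiotic fish had 187 to 262 CPM of washc2c (log2 fold change from control -0.055 ± 0.10 SE, edgeR adjusted p = 0.874).

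In the other partners the groups overlapped. Per kb, washc4 was at 19.3 ± 6.83 CPM in controls, 19.9 ± 4.17 in antibiotic fish and 22.4 ± 5.67 in probiotic fish (SD, n = 6, 5 and 6). The small subunit gene washc3 was at 11.8 ± 3.92, 12.02 ± 2.25 and 13.1 ± 3.57 CPM per kb. The capping genes capza1b (55.6 ± 9.68, 58.4 ± 9.30 and 59.4 ± 8.22 CPM per kb) and capzb (63.7 ± 11.43, 68.1 ± 8.08 and 65.9 ± 9.65 CPM per kb) were the most abundant per length. Levels of wash1 and washc2c per kb were close in controls, at 40.6 ± 9.57 and 42.2 ± 4.66 CPM per kb, and apart in antibiotic fish, at 22.6 ± 1.71 and 36.4 ± 3.11 CPM per kb. The ratio of wash1 to washc2c per kb ran from 0.791 to 1.29 in controls, 0.699 to 0.992 in probiotic fish and 0.564 to 0.694 in antibiotic fish. This ratio was chosen after the values were seen.

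**Figure D2:**
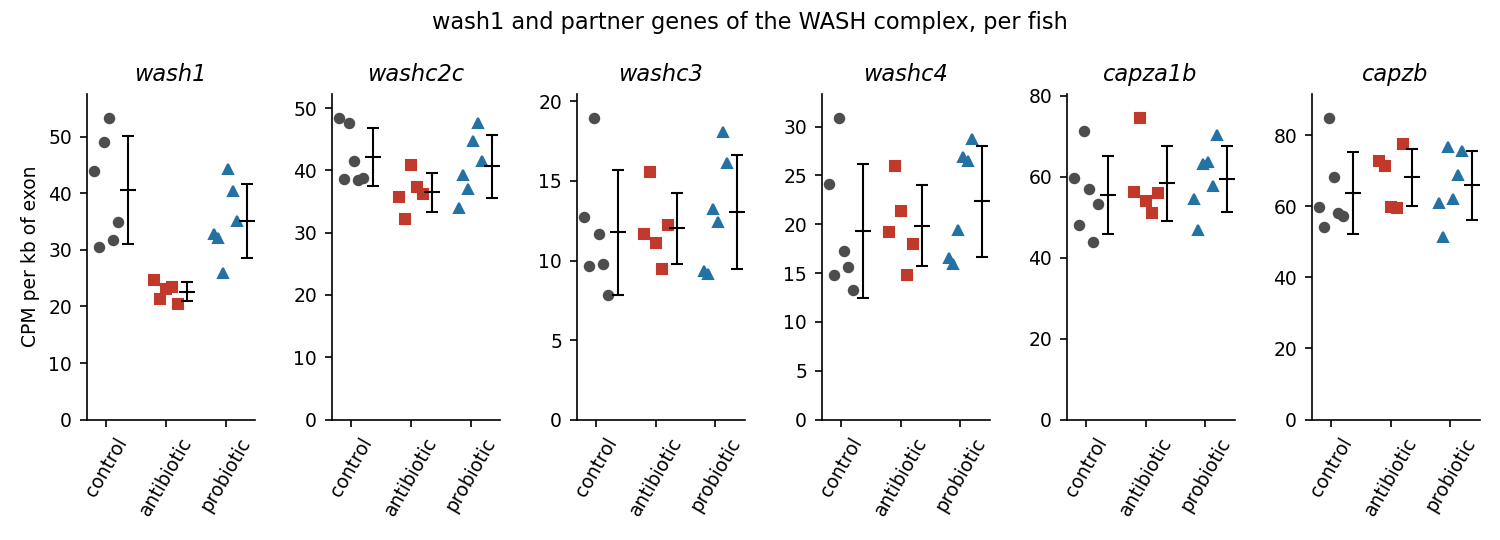
CPM per kb of exon for wash1 and its 5 partner genes, 1 panel per gene with its own axis from 0, 1 point per fish and the group mean ± SD. Antibiotic fish stand apart for wash1 (22.6 ± 1.71 against 40.6 ± 9.57 CPM per kb in controls) and overlap the controls in the panels of the partners. For washc2c only abx67C lies inside the control range, and the other antibiotic fish lie below it.

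Genes that act with the complex were counted next, over 74 tested genes of 7 lists, the partners included. Between antibiotic and control fish 0 of 74 passed edgeR, DESeq2 or limma-voom, 44 were below and 30 above a fold change of 1, and the median log2 fold change was -0.038. None of the 74 had a log2 fold change as low as wash1, beside 753 of 30221 tested genes. As wash1 was picked on this contrast, its fold change is a mark set by that choice, and the count carries no test. At an unadjusted p under 0.05 there were 2 lower and 1 higher genes of 74, where 6.21% of all genes had such a p. The lower ones were hexb, a lysosomal hexosaminidase (-0.39 ± 0.12 SE, edgeR adjusted p = 0.734), and tbc1d5, a Rab7 regulator that binds retromer (-0.24 ± 0.11 SE, adjusted p = 0.803). The higher one was ehd4, which shapes endosomal membranes (0.40 ± 0.13 SE, adjusted p = 0.774). In hexb every antibiotic fish lay below every control, as in 0.285% of all genes, and in ehd4 every one lay above, as in 0.199%.

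On the actin side of the pathway no gene passed between antibiotic fish and controls. Of 4 tested Arp2/3 complex genes 3 were lower in antibiotic fish (median log2 fold change -0.050), and arpc4, the most abundant per length, stood at 79.98 ± 14.1 CPM per kb in antibiotic fish and 83.4 ± 15.3 in controls. The member of smallest p was arpc5b (-0.30 ± 0.22 SE, edgeR adjusted p = 0.857). Other nucleation promoting factors and their binding partners (8 genes) had a median of -0.0049. Among them wasf2, which drives actin at the cell edge, was the most abundant, at 63.8 ± 2.14 CPM per kb in antibiotic fish and 66.1 ± 4.46 in controls, and whamm and jmy, relatives of wash1 that act on other membranes, had log2 fold changes of 0.041 ± 0.18 and 0.17 ± 0.25 (SE). The smallest p was that of cttnbp2, a cortactin-binding protein (-0.19 ± 0.12 SE, adjusted p = 0.844).

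On the sorting side none passed either. Retromer and sorting nexin genes (10 tested) had a median log2 fold change of 0.018, with snx2 the most abundant per length at 254 ± 18.3 CPM per kb in antibiotic fish and 286 ± 59.9 in controls. Retriever and CCC complex genes (12 tested), which recycle receptors with the WASH complex, had a median of -0.084, and 8 of them were lower than in controls. Their member of smallest p was vps26c, a retriever subunit (-0.28 ± 0.14 SE, edgeR adjusted p = 0.815). Early and recycling endosome genes (18 tested) had a median of 0.030, and lysosomal enterocyte genes (17 tested) one of -0.053, where 15 were lower than in controls. The summed lysosomal list ran from 22253 to 27971 CPM in antibiotic fish, 24662 to 34566 CPM in controls and 19428 to 29274 CPM in probiotic fish.

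Between probiotic fish and controls 0 of 74 pathway genes passed edgeR, and between antibiotic and probiotic fish 0 of 74, where 0% of all genes passed in either. At an unadjusted p under 0.05 there were 8 of 74 (3 higher, 5 lower) against controls, beside 9.71% of all genes, and 2 of 74 (both higher) between the treatments, beside 6.05%. Limma-voom called 0 of the 74 in each comparison, and DESeq2 0 between the treatments. The member with the smallest p was rabep2, a rabaptin that works with Rab5 on early endosomes. Control, antibiotic and probiotic fish had 57.6 ± 10.04, 49.5 ± 8.97 and 36.5 ± 6.01 CPM of rabep2 (SD, n = 6, 5 and 6). All 6 probiotic fish lay below all controls in rabep2, as in 0.165% of all genes (log2 fold change -0.66 ± 0.14 SE, edgeR adjusted p = 0.446). It was the 1 pathway gene of 74 that DESeq2 called (DESeq2 adjusted p = 0.0278), where DESeq2 called 34 of all 30221 tested genes. In the other lists the members of smallest p between probiotic and control fish were actr2a, an Arp2/3 subunit (0.29 ± 0.14 SE, adjusted p = 0.534), abi1, a partner of WAVE proteins (0.20 ± 0.12 SE, 0.590), tbc1d5 (-0.30 ± 0.10 SE, 0.446), commd4, a CCC subunit (-0.13 ± 0.10 SE, 0.666), and hexb (-0.32 ± 0.11 SE, 0.452).

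Between antibiotic and probiotic fish the members of smallest p were arpc2, an Arp2/3 subunit (-0.18 ± 0.17 SE, edgeR adjusted p = 0.915), jmy (0.36 ± 0.25 SE, 0.874), snx3, a sorting nexin (0.22 ± 0.13 SE, 0.857), commd3, a CCC subunit (-0.21 ± 0.15 SE, 0.871), rabep2 (0.44 ± 0.15 SE, 0.740) and ctsh, a cathepsin (0.32 ± 0.20 SE, 0.865). The most abundant genes per length in the remaining lists were commd7, another CCC subunit, at 47.7 CPM per kb over all fish, ehd1a, a recycling endosome ATPase, at 35.7, and ctsbb at 3290.

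From fish to fish, wash1 had an r above 0.5 with 10 of 17 lysosomal enterocyte genes, of which 2 passed after adjustment. Correlations were taken over all 17 fish on log2 CPM after the mean of each group was removed, so that they describe fish of the same treatment. The gene most like wash1 was glb1, the lysosomal beta-galactosidase, first of 23297 genes with a mean of at least 1 CPM. It was at 4759, 3149, 4913, 4724, 3825 and 3458 CPM in ctl12A, ctl12B, ctl12C, ctl35A, ctl35B and ctl35C. Fish abx67A, abx67B, abx67C, abx91A and abx91B had 3860, 2877, 3844, 3542 and 3086 CPM of glb1. Probiotic fish pro115A, pro115B, pro115C, pro139A, pro139B and pro139C had 3240, 3695, 2326, 4281, 3869 and 3889 CPM of glb1. The 3 controls high in wash1 were the 3 highest in glb1, and pro115C was the lowest probiotic fish in both. These 3 controls (ctl12A, ctl12C and ctl35A) had index numbers 9 or 12, and the other controls 10 or 11. Every pro115 fish was below every pro139 fish in glb1, as in wash1 and in 8.13% of all tested genes. Removal of group means leaves index and title numbers in the correlations, and the part of either was not tested.

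Tests of glb1 and ctsba were not planned, and the lists were chosen with earlier results of these data known. Their p-values below are therefore a description. For glb1 Pearson's r was 0.87 (permutation p = 4.00e-05, adjusted p = 0.00296 over the 74 pathway genes) and Spearman's rho 0.88 (permutation p = 0.000200, adjusted p = 0.0148). Without ctl35A and pro115C, the fish farthest from the median of wash1 after removal of group means, r was 0.87. Within controls alone r was 0.91 and within probiotic fish 0.90 (n = 6 each). With pro115C alone left out, r was 0.85 and the adjusted permutation p 0.0659. Second came ctsba, a cathepsin B gene, a lysosomal protease, with r = 0.86 (permutation p = 0.000590, adjusted p = 0.0218) and rho = 0.86 (permutation p = 0.000810, adjusted p = 0.0300). Without ctl35A and pro115C r was 0.81, within controls 0.92 and within probiotic fish 0.86. The adjusted p of ctsba rose above 0.05 with any of 6 single fish left out, namely ctl12A, ctl35A, pro115A, pro115C, pro139A and pro139B (r 0.82 to 0.86, adjusted permutation p 0.0513 to 0.0996).

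Of 17 lysosomal enterocyte genes 14 had a positive r and 10 an r above 0.5, with a median of 0.61, whereas 4.95% of all 23297 genes had an r above 0.5 and their median was 0.024. Above 0.5 were the receptor genes cubn (r = 0.77, permutation p = 0.00560, and rho = 0.75, permutation p = 0.00661) and amn (r = 0.70, permutation p = 0.00795, and rho = 0.68, permutation p = 0.00849). The adjusted p was 0.0996 for both r values. The lysosomal carboxypeptidase gene ctsa (r = 0.72) and the cathepsin gene ctsbb (r = 0.67) were above 0.5 too, while hexb (0.43) and ctsh (0.30) were lower in r. Another receptor gene, lrp2b, was at 0.22 and, within controls, at -0.25. The protein gene psap was at 0.14. Below 0 were lrp2 (-0.24, the lowest of the list), lgmn (-0.16) and lamp1b (-0.0098). Group means of lrp2 were only 0.40 to 0.56 CPM, under the mean of 1 CPM asked of the 23297 genes. In all, 2 of 74 pathway genes passed after adjustment, glb1 and ctsba.

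**Figure D3:**
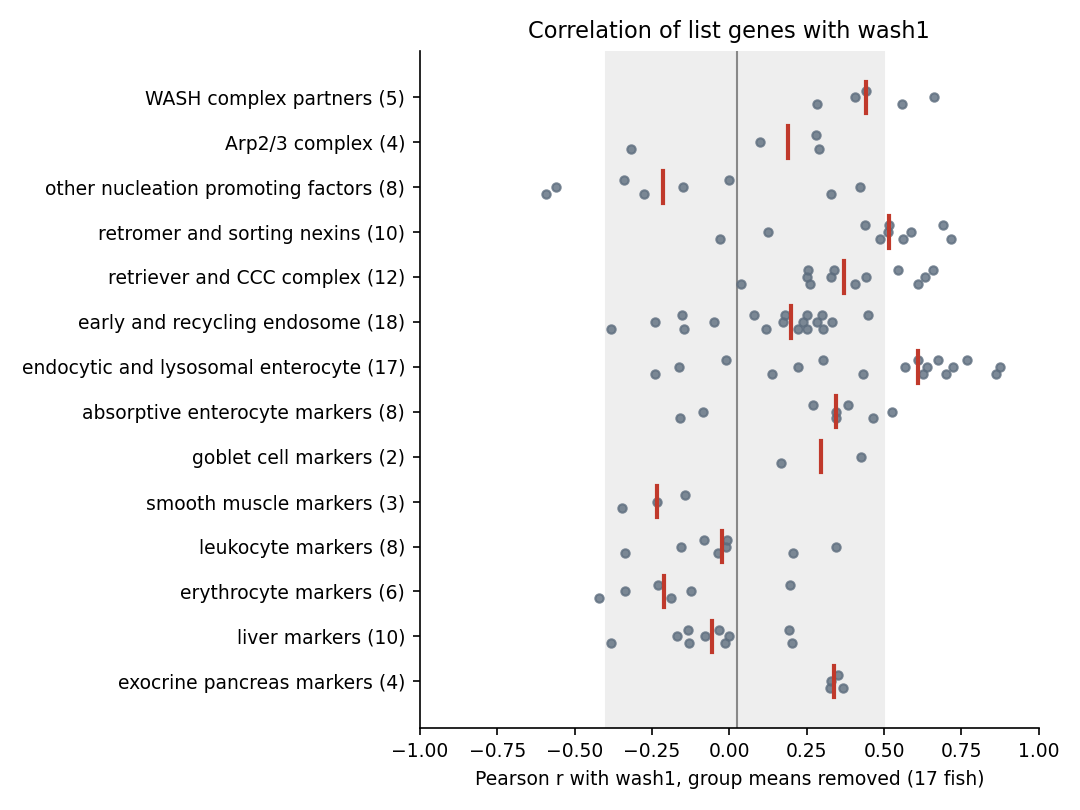
Pearson's r of each list gene with wash1 over 17 fish after removal of group means, with 1 point per gene, the number of tested genes in brackets and the median of each list as a red bar. The grey band holds the middle of all genes from the 5th to the 95th percentile (-0.40 to 0.50) and the grey line is their median (0.024), and the lysosomal enterocyte list has the highest median (0.61).

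The other pathway lists differed in direction. Retromer and sorting nexin genes had a median r of 0.51, with 6 of 10 above 0.5, led by snx2 (r = 0.72, permutation p = 0.00942; rho = 0.69, permutation p = 0.0117; adjusted p = 0.0996 for r). Among WASH partners all 5 were positive, with r = 0.66 for washc2c (permutation p = 0.0121, adjusted p = 0.112), 0.56 for washc4, 0.44 for washc3, 0.41 for capza1b and 0.28 for capzb, the last 4 at adjusted permutation p of 0.187 to 0.499. Spearman's rho for washc2c was 0.69 (permutation p = 0.00654, adjusted p = 0.114), and without ctl35A and pro115C its r was 0.75. Without the 8 libraries high in liver or pancreas markers the r of washc2c was 0.16 (adjusted permutation p = 0.961). Retriever and CCC genes were positive in 12 of 12, with a median r of 0.37 and 4 above 0.5. Other nucleation promoting factors were positive in 3 of 8, with a median of -0.21, the lowest being wasf1, a WAVE protein gene, at -0.59 (adjusted permutation p = 0.171). Group means of wasf1 were only 0.61 to 0.73 CPM, and those of another gene of that list 0.47 to 0.75 CPM. Both lie under the mean of 1 CPM asked of the genes ranked by r. Arp2/3 genes had a median of 0.19 and early and recycling endosome genes one of 0.20, with 0 of 4 and 0 of 18 above 0.5. The Arp2/3 medians join groups that differ in sign. Within controls r was 0.83 for actr2a, 0.84 for arpc4, 0.72 for arpc2 and -0.68 for arpc5b. Within probiotic fish the same genes had -0.21, -0.59, -0.29 and -0.12. Of the partners, capzb had 0.78 within controls and -0.19 within probiotic fish, and the others were positive in both. Of the marker lists, absorptive enterocyte genes had a median r of 0.34 (6 of 8 positive), exocrine pancreas genes 0.34 (4 of 4) and goblet cell genes 0.30 (2 of 2). Smooth muscle genes had -0.23, erythrocyte genes -0.21, liver genes -0.054 and leukocyte genes -0.024.

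These correlations shared the scaling of each library. The TMM factors were lowest in ctl12C (0.897) and ctl35A (0.926), which had the most wash1. With library size alone as the scale, r was 0.82 for glb1 (adjusted permutation p = 0.0111), 0.74 for ctsba (0.0770), 0.40 for washc2c and -0.097 for capzb, and the median of the lysosomal list was 0.42.

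The summed lysosomal list followed wash1 within each group. On log2 values its r with wash1 was 0.88 over 17 fish (rho 0.87) after removal of group means, 0.99 within controls, 0.80 within probiotic fish and 0.84 without ctl35A and pro115C. The most abundant genes weigh most in the sum. With the 17 genes weighted alike, as their mean log2 CPM, r over 17 fish was 0.72 after removal of group means. The sum was chosen after the values were seen, so these are a description. For a given list sum the antibiotic fish lay below the other fish in wash1. The choice of wash1 by its p between antibiotic and control fish favours such a gap, so it carries no test. For each 1000 CPM of the lysosomal list, wash1 stood at 2.14 ± 0.19 CPM in controls, 2.2 ± 0.25 CPM in probiotic fish and 1.38 ± 0.060 CPM in antibiotic fish (SD, n = 6, 6 and 5). Per fish the range was 1.95 to 2.43 in controls, 1.89 to 2.45 in probiotic fish and 1.3 to 1.45 in antibiotic fish.

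**Figure D4:**
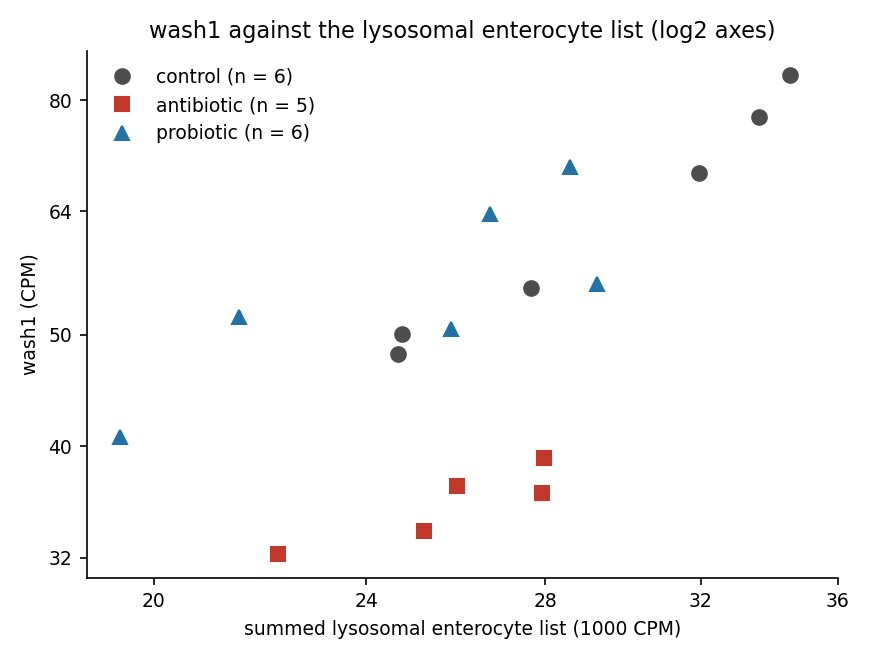
Level of wash1 in CPM against the summed CPM of the 17 lysosomal enterocyte genes, both axes on a log2 scale, with 1 point per fish. Within each group wash1 rises with the list, and the 5 antibiotic fish (1.3 to 1.45 CPM of wash1 per 1000 CPM of the list) lie below the controls (1.95 to 2.43) and the probiotic fish (1.89 to 2.45).

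With the log2 sum of the list as a covariate, antibiotic fish differed in log2 wash1 by -0.60 ± 0.10 SE from controls and -0.68 ± 0.096 SE from probiotic fish. The probiotic and control fish then differed by 0.075 ± 0.10 SE, opposite in sign to the value without the covariate. The part of lysosomal enterocyte RNA in the wash1 difference was not tested. The log2 fold change of wash1 between antibiotic and control fish was of one sign in all 28 alternatives, from -1.04 to -0.60. With single fish left out it ran from -0.92 without ctl12B to -0.77 without ctl35A. The alternatives refit the fish that picked the gene, which favours this sign, so they are a description.

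**Figure D5:**
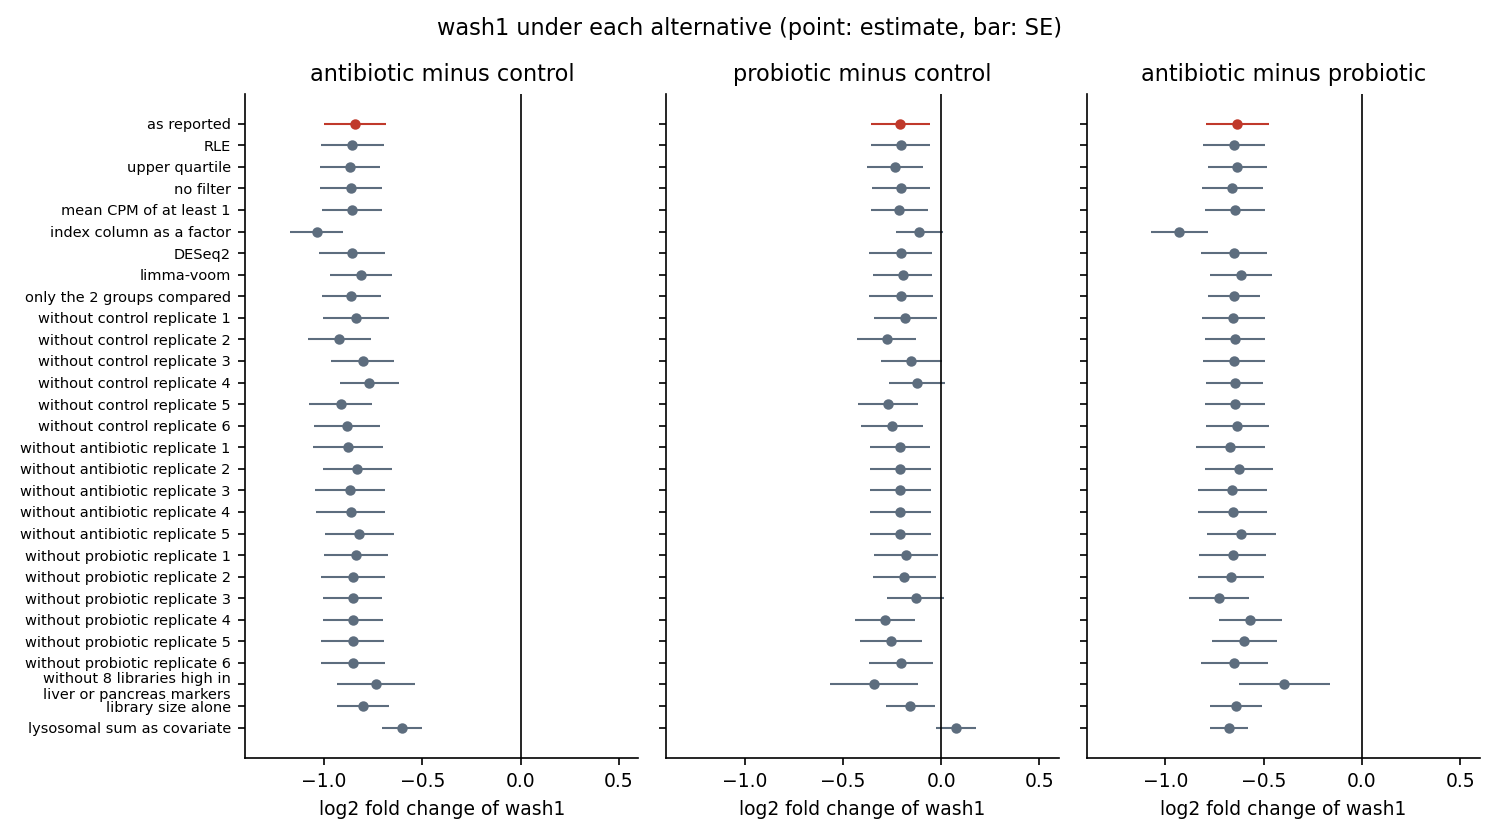
Log2 fold change of wash1 for each comparison (1 panel each) under each alternative, with the estimate as a point and its SE as a bar; the value as reported is in red. Replicates are numbered within a group in accession order, and the index column is the number in the index name. Antibiotic minus control runs from -1.04 to -0.60, and probiotic minus control from -0.34 to 0.075, below 0 in 27 of 28 alternatives.

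Other genes most like wash1 within groups were cradd (r = 0.86), a death-domain adaptor, fuca2 (r = 0.85), a fucosidase, and LOC112216098 (r = 0.84), which has no symbol. They were named by rank among all genes, so no test is given. Between antibiotic fish and controls cradd had a log2 fold change of -0.030 ± 0.13 SE and fuca2 one of -0.14 ± 0.13 SE. Least like wash1 were cunh7orf26 (r = -0.83), LOC112262635 (-0.78), LOC112215270 (-0.76), mgat3b, a glycosyltransferase of N-glycans (-0.75), and LOC112226770 (-0.75). With group means left in, the highest were cpvl (r = 0.81), a serine carboxypeptidase, LOC112250179 (0.80), aadat (0.79), an aminotransferase of lysine and tryptophan breakdown, LOC112242443 (0.78) and LOC112258482 (0.78). The lowest were then LOC112252065 (-0.83), LOC112255167 (-0.81), LOC112221534 (-0.75), LOC112239242 (-0.75) and LOC112258988 (-0.74). Of these, aadat had 42.1 ± 8.08 CPM among controls and 29.7 ± 2.75 CPM among antibiotic fish (SD, n = 6 and 5). With group means left in, r also holds the group difference on which wash1 was picked. After removal of group means r was 0.75 for cpvl, 0.77 for LOC112250179, 0.50 for aadat, 0.31 for LOC112242443 and 0.64 for LOC112258482. For the lowest genes it then ran from -0.73 in LOC112252065 to -0.48 in LOC112221534.

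No tested gene beside wash1 on its sequence passed edgeR in any comparison, where 0% of all genes passed. The nearest, ddx11, a DNA helicase, lies 571 bases beyond the end of wash1 on the opposite strand, from 31528611 to 31541061. Control, antibiotic and probiotic fish had 12.01 ± 2.69, 11.26 ± 2.03 and 15.5 ± 1.13 CPM of ddx11 (SD, n = 6, 5 and 6), with r = 0.14 to wash1. From controls its log2 fold change was -0.092 ± 0.16 SE in antibiotic fish (edgeR adjusted p = 0.943). In probiotic fish it was 0.37 ± 0.16 SE (edgeR unadjusted p = 0.0287, adjusted p = 0.484). Between antibiotic and probiotic fish it was -0.46 ± 0.16 SE (edgeR unadjusted p = 0.0115, adjusted p = 0.740). Next on that side came fkbp4, a chaperone-binding immunophilin, at 67.7 ± 18.9, 83.0 ± 13.6 and 87.0 ± 21.6 CPM in the same order (log2 fold change of antibiotic fish from controls 0.29 ± 0.20 SE, edgeR adjusted p = 0.849). On the other side LOC112218625 and LOC112218975 had log2 fold changes of -0.33 ± 0.27 and -0.11 ± 0.33 SE (adjusted p = 0.868 and 0.969). The 2 further neighbours, LOC112218976 and tnni1c, had 125 and 12 counts over all libraries and were too scarce to test. The sources used here do not say whether counting used strand.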

How the data were processed

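The deposited table holds raw counts per gene that the authors made, with 1 column per library. Per the submitters' processing notes, Trimmomatic 0.38, HISAT2 and featureCounts were used. No source used here gives the genome build, the strand setting or how multiply mapped reads were counted. Gene lengths are the deposited featureCounts lengths. Of 42555 entries, 1 has no identifier and was left out (0.155 to 0.523% of counts). For LOC identifiers, symbols came from a table of assembly Otsh_v2.0, used for names only, which gave 6084 of 38153 a symbol.

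Genes kept by filterByExpr (30221) were scaled by TMM and fitted with edgeR 4.0.16 (R 4.3.3; robust quasi-likelihood, 17 libraries, group as the factor), and calls needed an adjusted p (Benjamini-Hochberg) under 0.05. Log2 CPM used a prior count of 2. DESeq2 1.42.0 and limma-voom 3.58.1 were alternatives. Correlations had 100000 shuffles of fish within groups, two-sided, and were adjusted over the 74 pathway genes in place of the 5 partners planned. The pipeline was tested on simulated counts. The gene, the lists and the tests were chosen with earlier results of these data known. Genes named are wash1, its partners, in each pathway list the member of smallest p per comparison and the most abundant per length, the 5 highest and lowest in r, and the 3 neighbours on each side. The genes ctsa, cubn, amn, lrp2b, lrp2, lgmn, lamp1b, psap, whamm and wasf1 were added after their values were seen. Marker lists are given as sums. Replicates are separate fish by their titles; nothing else says how they were housed.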

Additional observations from a re-analysis of the deposited data

Results flagged for a closer look

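Of 153 group values of named genes (51 genes in 3 groups), 9 had 1 fish far from the others of its group by Dixon's test, where chance flags about 1 in 20; none of them was in wash1. The capping gene capza1b stood at 160 CPM in abx67B (next 120 CPM). The adaptor gene cradd stood at 21.3 CPM in abx67A (next 18.0 CPM). The neighbour ddx11 was low in ctl35B at 6.88 CPM (next 11.7 CPM) and high in pro115C at 17.8 CPM (next 15.3 CPM). The Arp2/3 genes arpc4 and arpc2 were low, at 92.0 CPM in pro139B (next 111 CPM) and 94.3 CPM in abx91A (next 147 CPM). The cortactin-binding gene cttnbp2 was at 54.4 CPM in pro115B (next 43.1 CPM). Control ctl12C was high in snx3, a sorting nexin, at 195 CPM (next 135 CPM), and in ctsbb at 8087 CPM (next 5253 CPM).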

How the results depend on the processing

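The log2 fold change of wash1 between antibiotic and control fish stayed within the spread of fish (0.26 on the log2 scale) of its value in all 28 alternatives. These refit the fish that picked the gene, so this is a description. Against probiotic fish it was -0.93 with the index number as a factor, -0.39 ± 0.23 SE without the 8 libraries high in liver or pancreas markers and -0.72 to -0.57 with single fish left out. Probiotic minus control ran from -0.29 to -0.12 with single fish left out. It was -0.34 ± 0.22 SE without the 8 libraries and 0.075 with the lysosomal sum as a covariate. Over all genes edgeR called 0 in each comparison and DESeq2 26, 34 and 23 (antibiotic and probiotic against control, then antibiotic against probiotic). With the index number 1 gene passed for antibiotic against control, wash1 itself, which was picked on that contrast. For probiotic against control 1 gene, LOC112242158, passed in a fit of these groups only, without ctl12A and without abx67B (0 to 1 with single fish left out). Without 8 libraries whose liver or pancreas markers were over 3 times the median, an alternative chosen after seeing the data, 5 genes passed there and 4 between the treatments. Of the pathway genes DESeq2 called 1, rabep2.

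With group means left in, r was 0.75 for washc2c (adjusted permutation p = 0.0307) and -0.0022 for capzb. Such r values hold the group difference on which wash1 was picked, so that p is a description. With group means removed, r of washc2c was 0.66 (adjusted permutation p = 0.112), and 0.16 without the 8 libraries (0.961). With library size alone r was -0.097 for capzb and 0.74 for ctsba (adjusted permutation p = 0.0770). For ctsba r was 0.79 in a refit without ctl35A and pro115C (0.0527), 0.84 without the 8 libraries (0.545) and 0.82 to 0.89 with single fish left out. For glb1 it was 0.88 without the 8 libraries (adjusted permutation p = 0.258, over 9 fish) and 0.85 to 0.90 with single fish left out. Of the lysosomal genes 2 passed, 0 to 2 with single fish left out. The cause was not tested. A fit with abx67C under index number 12 was not run. No paired analysis was possible because the groups share no title numbers.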

Other observations

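Besides wash1, 9 genes had every antibiotic fish below every control and probiotic fish. Only ccny, a cyclin gene, has a symbol among them. It was at 1.25 ± 0.32 CPM in antibiotic fish (SD, n = 5), 1.86 ± 0.15 CPM in controls (SD, n = 6) and 1.99 ± 0.26 CPM in probiotic fish (SD, n = 6). The most abundant of the 9, LOC112231723, was at 75.4 ± 4.01, 85.1 ± 4.2 and 86.9 ± 3.48 CPM in the same order. Within groups none of the 9 had an r with wash1 above that of LOC112242443 (0.31). These genes were picked for their pattern after the values were seen, so no test is given.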
